A study of Mus musculus with 27 samples.

Results

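The optic stalk is the neuroepithelial tube that links the developing eye cup to the brain. A pair of its regions was compared here in control embryos: the ventral stalk, a strip of epithelium, and the axon region, the core of the stalk that retinal ganglion cell (RGC) axons fill. The comparison used 8 of the 27 libraries of the series, 4 from the ventral stalk and 4 from the axon region. Libraries that carry the same number were taken as pieces of 1 embryo, so the regions were also compared as 4 pairs, although the labels do not name the embryos.

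All embryos were C57Bl6/J mice at embryonic day 14 (E14). Controls were littermates without the Dct-Cre transgene. Which floxed alleles the controls carried is not given in the sources used here. A further 10 libraries came from the same regions of 5 Smarcc1-DCT-cKO embryos (Baf155 loxP/loxP, Dct-Cre;Z/EG), in which Cre driven by the pigment gene Dct removes the chromatin remodelling subunit Smarcc1 (also named Baf155) in the pigmented and stalk lineages. They share no library with the controls and serve as a separate set for the same regional contrast. Each piece was cut by laser from 12 µm cryosections stained with Cresyl Violet, and its cDNA was amplified before sequencing.

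An RGC lies with its cell body and nucleus in the retina and sends its axon through the stalk. Tissue cut from the stalk can thus hold mRNA of the axon, but not the RGC nucleus or the nuclear RNA in it. Among the mRNAs described in axons are those of ribosomal proteins, respiratory chain subunits and the cytoskeleton. The same core also holds stalk cells between the axons, and the stalk neuroepithelium is the source of optic nerve astrocytes.

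The 4 ventral libraries held 13.1 to 19.6 M counts (M, 1e6) and the 4 axon libraries 16.8 to 21.8 M counts, so that 1 read was worth 0.0458 to 0.0763 counts per M counts (CPM). A mean of 14294 ± 2075 genes (SD, n = 4) was detected in the ventral stalk and of 12143 ± 1797 (SD, n = 4) in the axon region (exact permutation p = 0.143, two-sided). The 50 most abundant genes of each library took 11.7 to 15.4% of the ventral counts and 18.1 to 25.5% of the axon counts. Control 1 was the only control of batch A, and controls 2 to 4 belonged to batch B. Ventral control 2 stood apart. Of 75 genes of neuronal cytoskeleton, growth cone, vesicle, adhesion and RGC nuclear factor lists that were tested and counted in ventral libraries, 52 (69.3%) had their highest ventral value in it. The RGC transcription factor gene Isl1 had 145 CPM there and 0 in the other 3 ventral libraries, the microtubule protein gene Mapt 284 CPM and 0, and the vesicle gene Syt4 309 CPM and 0. The axon libraries held 0 to 3.16 CPM of Isl1, 0 to 24.4 CPM of Mapt and 0 to 17.0 CPM of Syt4. The counts of the neuronal gene lists are therefore given with and without this library.

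**Figure D1:**
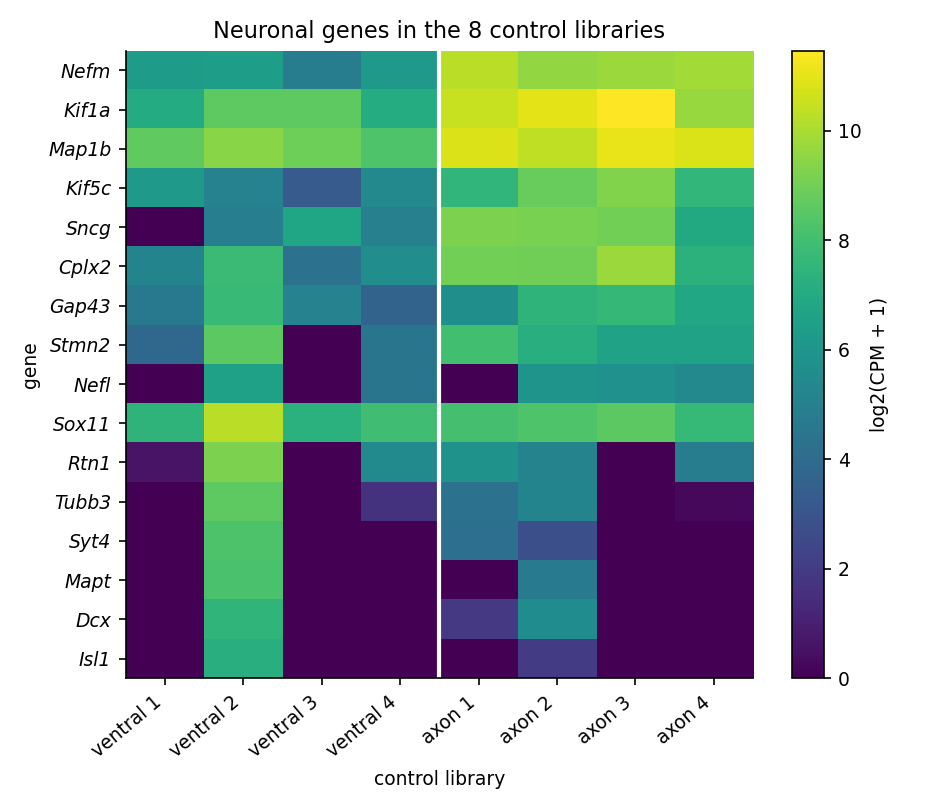
Level of 16 neuronal genes, picked after their values were seen, in each control library as log2(CPM + 1); columns are the 4 ventral and the 4 axon libraries. The genes from Nefm to Cplx2 are brightest in the axon libraries, and the genes from Sox11 to Isl1 are brightest in ventral control 2, where Isl1 had 145 CPM.

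The labelled regions were compared with some of their markers. Nefm, a neurofilament gene of neurons with long axons, stood at 767 to 1253 CPM in the axon libraries and at 27.9 to 85.8 CPM in the ventral libraries. Nefm is also among the genes called below, so it is no separate check of the axon label. Of other axon marker genes given below, Sncg did not overlap between the regions, while Nefl, Gap43 and Stmn2 did. The stalk factor gene Pax2 had 6.91 to 56.5 CPM in the ventral stalk and 5.4 to 22.0 CPM in the axon region. Vax1, a defining factor of the ventral stalk, was near the floor, with 0 to 2.42 CPM in the ventral libraries and 0 to 6.55 CPM in the axon libraries. Better represented in the ventral stalk were the eye field gene Six6, at 72.0 to 229 CPM, and Nr2f1, a factor of ventral eye tissue, at 464 to 706 CPM. The highest axon value of Nr2f1 met its lowest ventral value at 464 CPM. Smarcc1, the gene removed in the mutants, had 198, 90.8, 75.7 and 155 CPM in ventral controls 1 to 4 and 61.9, 50.1, 242 and 143 CPM in axon controls 1 to 4, with overlap of the regions.

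The first question was which genes separate the regions. Of 15839 genes tested by edgeR, 5 were called (adjusted p under 0.05 and a log2 fold change over 0.58 in size), and all 5 were higher in the axon region. They were Trp53inp2, Nefm, Map1b, Ccnd2 and Fth1. These 5 are 0.0316% of the genes tested, and 0% were called higher in the ventral stalk. At an unadjusted p under 0.05, 2.39% of the genes (379) were higher in the axon region and 6.80% (1077) in the ventral stalk. The median log2 fold change (ventral minus axon) of all genes was 0.22. With the replicate number as a block, edgeR called 0 genes, and 418 genes reached 0.05 before adjustment. By DESeq2, 424 genes were called, of which 343 were higher in the ventral stalk, and limma voom called 28, of which 24 were higher in the ventral stalk, so the number and the direction of the calls depended on the method. The DESeq2 calls held all 5 genes, and the limma voom calls held 0 of them.

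Trp53inp2 (ENSMUSG00000038375.15, mm10 chr2:155381059-155389850, plus strand) encodes a regulator of autophagy and transcription. Its levels were 78.5, 136, 93.4 and 116 CPM in ventral controls 1 to 4 and 1634, 1076, 1605 and 938 CPM in axon controls 1 to 4. The lowest axon library lay far above the highest ventral library, so any pairing of the libraries would give a higher axon level in 4 of 4 pairs. The log2 fold change was -3.84 ± 0.30 (SE), with an edgeR adjusted p of 0.000263. With the replicate block the log2 fold change was -3.81 and the adjusted p 0.0594. Trp53inp2 remained called by edgeR in each of 12 fits that left out a library or a pair. Among these 12 is the fit without both libraries of control 1, that is, batch B alone (log2 fold change -3.59, adjusted p 0.0300).

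Nefm (ENSMUSG00000022054.11, chr14:68082590-68124846, minus strand) had 79.5, 85.8, 27.9 and 72.1 CPM in the ventral libraries and 1253, 767, 858 and 949 CPM in the axon libraries. The log2 fold change was -4.06 ± 0.37 (SE), with an edgeR adjusted p of 0.000744, and the regions did not overlap. The adjusted p was 0.0594 with the block and 0.0522 in batch B alone, that is, without both libraries of control 1. Of the exonic bases of Nefm, 19.2% are shared with the neighbouring neurofilament gene Nefl on the other strand, so some reads could belong to either. Nefl itself had 0, 94.0, 0 and 20.9 CPM in the ventral libraries and 0, 59.2, 55.2 and 41.5 CPM in the axon libraries, with overlap.

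Map1b (ENSMUSG00000052727.6, chr13:99421446-99516540, minus strand) encodes a microtubule-associated protein of growing axons. It stood at 410.1, 691, 486 and 318 CPM in the ventral libraries and at 1832, 1316, 2165 and 1778 CPM in the axon libraries, with no overlap. The log2 fold change was -2.09 ± 0.27 (SE), with an edgeR adjusted p of 0.0243 (0.215 with the block, 0.508 in batch B alone). Each of 9 of the 12 fits without a library or a pair took the adjusted p above 0.05, up to 0.540 without both libraries of control 3. The highest ventral value was that of ventral control 2, and without it the log2 fold change was -2.32.

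Ccnd2 (ENSMUSG00000000184.12, chr6:127125162-127152193, minus strand) encodes cyclin D2, which drives entry into the cell cycle. The ventral libraries lay close together at 632, 656, 543 and 652 CPM, and the axon libraries held 3387, 1586, 1369 and 2563 CPM. The log2 fold change was -2.04 ± 0.27 (SE), with an edgeR adjusted p of 0.0243 (0.141 with the block, 0.375 in batch B alone). Of its exonic bases, 7.86% are shared with Gm43126. The call was lost in 10 of the 12 fits without a library or a pair, and kept without axon control 2 (adjusted p 0.0431) or axon control 3 (adjusted p 0.0391).

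Fth1 (ENSMUSG00000024661.7, chr19:9980598-9985098, plus strand) encodes the heavy chain of ferritin, the iron store of the cell. It had 1099, 1223, 1117 and 1060.0 CPM in the ventral libraries and 2663, 2279, 1949 and 2036 CPM in the axon libraries. The spread within each region was small against the difference between them. The log2 fold change was -1.18 ± 0.17 (SE), with an edgeR adjusted p of 0.0481 (0.138 with the block, 0.508 in batch B alone), and the adjusted p was above 0.05 in all 12 fits without a library or a pair (0.0775 to 0.540).

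**Figure D2:**
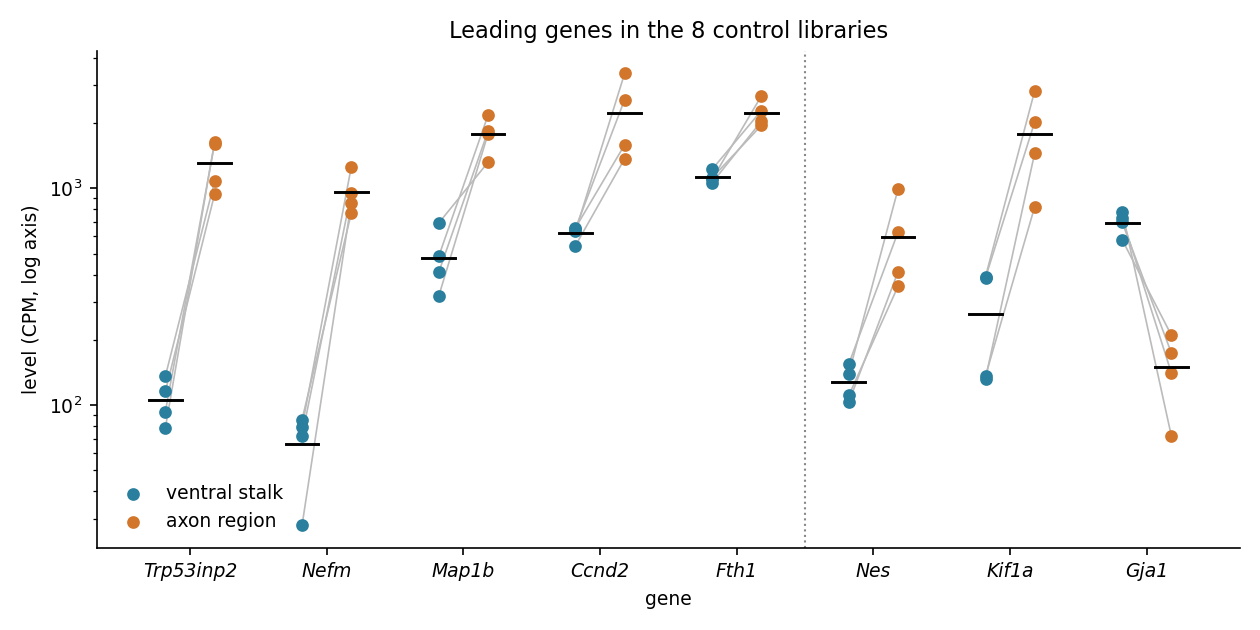
Levels (CPM, log axis) of 8 genes in the 4 ventral (blue) and 4 axon (orange) control libraries; grey lines join libraries of the same replicate number and black bars are means. Left of the dotted line are the 5 called genes, all higher in the axon region without overlap. Nes, Kif1a and Gja1 to its right were not called (edgeR adjusted p 0.0537, 0.0735 and 0.0537).

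The same contrast was fitted in the mutant embryos. Of 15804 genes tested there by edgeR, 66 (0.418%) were called higher in the axon region and 4 (0.0253%) higher in the ventral stalk. As in controls, the balance of directions turned with DESeq2, which called 224 genes higher in the mutant axon region and 1128 higher in the mutant ventral stalk. All 5 genes called in controls were called in mutants in the same direction. Mutant means were 71.8 ± 45.5 CPM in the ventral stalk and 1083 ± 571 CPM in the axon region for Trp53inp2 (SD, n = 5). For Map1b they were 392 ± 154 and 2635 ± 645 CPM (SD, n = 5), and for Ccnd2 401 ± 200 and 2789 ± 808 CPM (SD, n = 5). The mutant log2 fold changes were -4.10 for Trp53inp2, -3.55 for Nefm, -2.94 for Map1b, -2.98 for Ccnd2 and -1.0 for Fth1, with edgeR adjusted p-values of 0.00179, 0.000523, 0.000122, 0.000523 and 0.00313. Of the 66 genes called higher in mutant axons, 64 were also higher in control axons and 52 had an unadjusted p under 0.05 there in that direction. Of the 4 called higher in the mutant ventral stalk (H2-K1, Ptcd2, Zdhhc13 and Polr3c), 3 were higher in the control ventral stalk, as were 57.1% of all genes. None of the 4 had an unadjusted p under 0.05 there in that direction. Starting from the controls, 241 of the 358 genes with an unadjusted p under 0.05 and higher control axon levels were higher in mutant axons. Of the 987 such genes with higher control ventral levels, 723 were higher in the mutant ventral stalk. Of all 15366 genes tested in both, 40.1% were higher in mutant axons, so most genes were higher in the mutant ventral stalk in any case. The test of the difference between genotypes called 0 of 16277 genes by edgeR, with 1512 at an unadjusted p under 0.05. Map1b and Ccnd2 had the larger regional difference in mutants, but the test of that difference gave adjusted p-values of 0.501 and 0.461. Controls and mutants also differed in number (4 and 5 embryos) and batch composition.

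**Figure D3:**
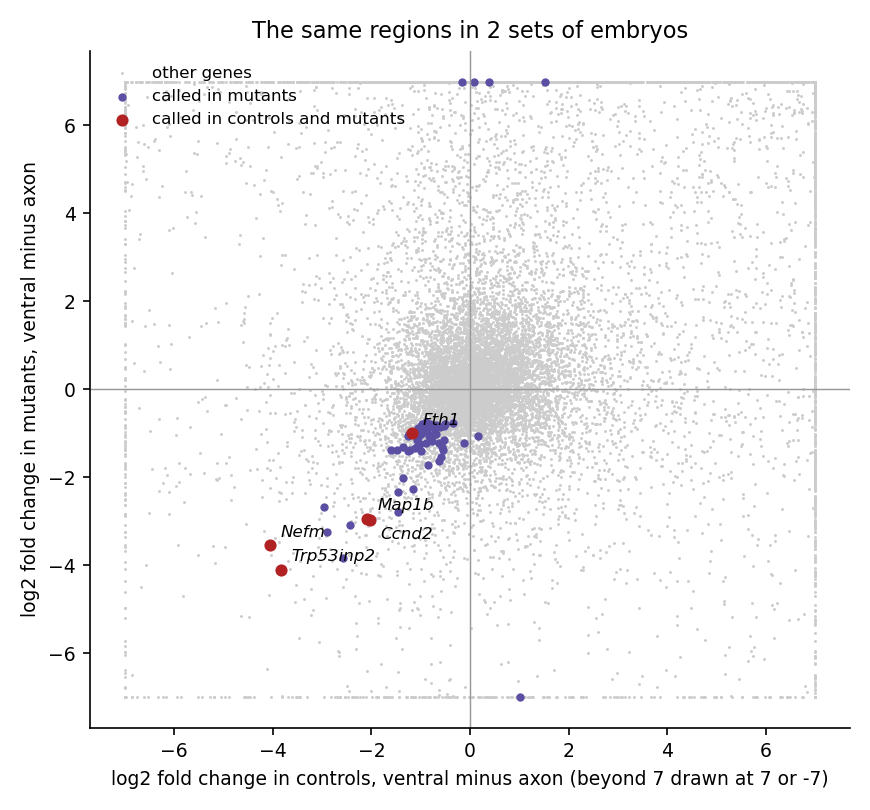
Log2 fold change (ventral minus axon) of each gene in controls (x axis) and mutants (y axis), which share no library; larger values are drawn at the edge. The 5 genes called in both sets (red) and 64 of the 66 genes called higher in mutant axons (purple and red) lie on the side of higher axon levels in controls.

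Cytoskeleton and transport genes followed Nefm and Map1b only in part. Among 19 tested motor and adaptor genes, those with the smallest p were 3 kinesin genes, whose proteins carry cargo outward along axons. Kif1a, which moves vesicle precursors (ENSMUSG00000014602.15, chr1:93015464-93101951), had 133, 387, 391 and 136 CPM in the ventral libraries and 1455, 2022, 2814 and 822 CPM in the axon libraries. Its log2 fold change was -2.96 ± 0.48 (SE), with an edgeR adjusted p of 0.0735 (0.0594 with the block), and it was called in mutants (log2 fold change -2.67, adjusted p 0.00286). Kif5c, a conventional kinesin of neurons, had 71.2, 33.1, 8.69 and 40.4 CPM in the ventral libraries and 184, 449.6, 627 and 189 CPM in the axon libraries. Its widely expressed relative Kif5b had 135, 221, 127 and 123 CPM and 402, 280.1, 261 and 416 CPM. Neither pair of groups overlapped, with edgeR adjusted p-values of 0.163 and 0.453. Kif1a, Kif5c and Kif5b were the 3 motor genes with an unadjusted p under 0.05 and higher axon levels. The other 16 motor genes were split, and the whole list had 10 members higher in the axon region and 9 in the ventral stalk, with a median log2 fold change of -0.12 (11 and 8 without ventral control 2, median -0.24). As a share of counts, the list held 0.181 to 0.221% of the ventral counts and 0.291 to 0.501% of the axon counts, without overlap. These 3 kinesin genes carried that difference. The other 17 genes of the list, 1 of them not tested, held 0.141 to 0.157% of the ventral counts and 0.130 to 0.162% of the axon counts, with overlap.

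Of 20 microtubule and growth cone cytoskeleton genes, 13 (65%, against 42.9% of all genes) were higher in the axon region (median log2 fold change -0.22). Map1b and Map4 had an unadjusted p under 0.05. The count varied with the libraries used. Without ventral control 2, 19 of the 20 were higher in the axon region (median -1.24, with 5 at an unadjusted p under 0.05). It was 10 of 20 without ventral control 3 (median -0.06) and 9 of 20 in batch B alone, without both libraries of control 1 (median 0.08). Of 14 growth cone membrane genes 9 were higher in the axon region (median -0.36). This count was 10 without ventral control 2 (median -1.0) and 8 in batch B alone (median -0.14). Gap43, the classic growth cone protein gene, had 23.6, 207, 32.9 and 11.5 CPM in the ventral libraries and 50.7, 176, 199 and 114 CPM in the axon libraries. Only ventral control 2 reached the axon levels. Stmn2, which encodes a tubulin-binding growth cone protein, had 13.4, 383, 0 and 21.1 CPM and 254, 145, 95.7 and 96.5 CPM. Tubulin genes were spread over both sides, with 6 of 11 higher in the axon region (median -0.06), and also 6 of 11 without ventral control 2 (median -0.27). Of 16 mRNAs known from other neurons to be present in axons, 10 were higher in the axon region (median -0.24), and also 10 without ventral control 2 (median -0.21).

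The other neuronal mRNAs with higher axon levels were few. The synuclein gene Sncg, a marker of RGCs, had 0, 29.0, 104 and 30.9 CPM in the ventral libraries and 589, 573, 519 and 122 CPM in the axon libraries, without overlap (log2 fold change -3.64 ± 1.26 SE, edgeR adjusted p 0.453). Cplx2, which encodes a regulator of vesicle fusion, had 35.3, 221, 18.2 and 47.8 CPM and 522, 499, 860.2 and 162 CPM. Its regions overlapped through ventral control 2 and axon control 4 (edgeR adjusted p 0.453 in controls and 0.00708 in mutants). Akap6, which encodes an anchor of protein kinase A, had 39.3, 43.3, 3.09 and 68.3 CPM and 631, 369.5, 624 and 406 CPM (edgeR adjusted p 0.112). Tmsb10, an actin-sequestering protein gene abundant in growing neurites, had 542, 743, 531 and 465 CPM and 1736, 1229.5, 915 and 883 CPM (edgeR adjusted p 0.398 in controls and 0.00174 in mutants). Of 16 vesicle and secretion genes 6 were higher in the axon region and 10 (62.5%, near the 57.1% of all genes) in the ventral stalk. Their median log2 fold change was 0.16, against 0.22 for all genes. The larger number was on the axon side without ventral control 2 (10 of 15, median -0.26) and without both libraries of control 2 (11 of 15, median -0.67). Unc13c, a vesicle priming gene, was the only gene of 15839 with at least 10 CPM in all 4 libraries of one region and 0 counts in all 4 of the other. It had 0 counts in the ventral controls and 69.0, 62.2, 48.7 and 71.5 CPM in the axon controls, at least 340-fold higher against a floor of 3 counts per library (edgeR adjusted p 0.112). In mutants Unc13c had 13.3 ± 9.09 CPM in the ventral stalk and 9.60 ± 21.4 CPM in the axon region (SD, n = 5). The difference between genotypes had an adjusted p of 0.431 by edgeR.

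The balance of the RGC nuclear factors between the regions depended on ventral control 2. Of 12 tested, 4 were higher in the axon region and 8 (66.7%, near the 57.1% of all genes) in the ventral stalk (median log2 fold change 0.53). Without that library these numbers were 8 and 4 (median -1.18). Without both libraries of control 2 they were 5 and 6 of 11 tested (median 0.08), and in mutants 6 and 7 of 13 tested (median 0.18). Sox11, a factor of young neurons, had 174, 1222, 157 and 247 CPM in the ventral libraries and 271, 314, 384 and 207 CPM in the axon libraries. Genes of axon adhesion proteins were lower in the axon region than in the ventral stalk in 11 of 12 cases (median log2 fold change 2.31, or 1.57 with genes at 0 in 1 region set to their bound). The size of this difference also depended on ventral control 2. The adhesion gene L1cam had 76.1 CPM in that library and 0 to 1.64 CPM in all other control libraries, and without it 9 genes were tested, 7 of them higher in the ventral stalk, with a median of 0.41.

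**Figure D4:**
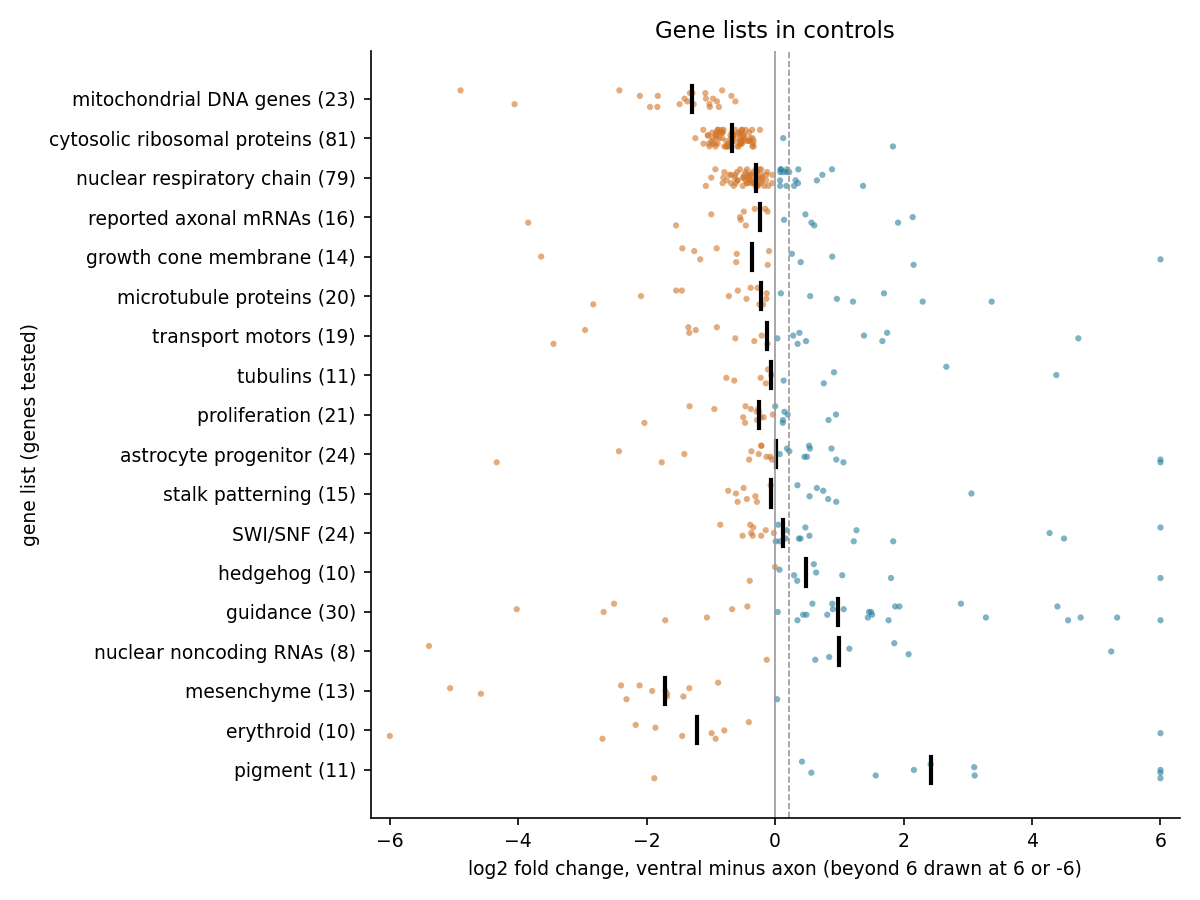
Log2 fold change (ventral minus axon) in controls for the tested genes of 18 lists; dots are genes (orange higher in the axon region, blue higher in the ventral stalk), black bars list medians and the dashed line the median of all genes (0.22). The mitochondrial DNA genes (median -1.29) and cytosolic ribosomal protein genes (median -0.67) lie almost wholly on the axon side.

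Mitochondrial RNA took a larger share of the axon libraries. The genes of mitochondrial DNA, which encode 2 ribosomal RNAs, transfer RNAs and core subunits of the respiratory chain, held 4.37, 7.61, 5.58 and 3.72% of the counts in ventral controls 1 to 4 and 8.64, 10.8, 15.4 and 8.65% in axon controls 1 to 4. The regions did not overlap (exact permutation p = 0.0286, two-sided, the smallest that 70 splits can give, and 0.0571 adjusted over 4 library measures). As 4 pairs the exact p was 0.125, the smallest that 16 sign changes can give. Without ventral control 4 or axon control 3 the exact permutation p was 0.0857 and 0.0571. All 23 tested members were higher in the axon region (median log2 fold change -1.29). An unadjusted p under 0.05 was reached by 10 (43.5%, against 2.39% of all genes in that direction). In mutants all 23 were higher too (median -1.14), and 8 were called, against 0.418% of all genes in that direction. The 12S ribosomal RNA gene mt-Rnr1 (chrM:70-1024) had 1861, 2797, 1899 and 1488 CPM in the ventral libraries and 4543, 4152, 6485 and 4508 CPM in the axon libraries (log2 fold change -1.49 ± 0.23 SE, edgeR adjusted p 0.0537). The 16S gene mt-Rnr2 (chrM:1094-2675) had 19547, 35938, 21449 and 16678 CPM and 45592, 55039, 65517 and 44642 CPM (log2 fold change -1.37 ± 0.23 SE, edgeR adjusted p 0.0791). Both were called in mutants (edgeR adjusted p 0.00157 and 0.00979). The cytochrome oxidase gene mt-Co1 had 2894, 5853, 4147 and 2823 CPM and 5168, 9059, 8564 and 5072 CPM. Only ventral control 2 reached into the axon range.

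Respiratory chain subunits encoded in the nucleus showed a smaller shift. Of 79 tested, 61 were higher in the axon region (77.2%, against 42.9% of all genes), with a median log2 fold change of -0.30. At an unadjusted p under 0.05, 9 were higher in the axon region (11.4%, against 2.39% of all genes). In the ventral stalk 1 was, Sdha (1.27%, against 6.80%). The cytochrome oxidase subunit gene Cox6a1 had 1083, 1014, 1293 and 927 CPM in the ventral libraries and 2234, 1892, 2309 and 1537 CPM in the axon libraries (log2 fold change -1.08 ± 0.21 SE, edgeR adjusted p 0.247). Its partner Cox4i1 had 816, 1006, 862 and 694 CPM and 1567, 1434, 1641 and 1240.0 CPM (edgeR adjusted p 0.303 in controls and 0.00708 in mutants). Sdha, of complex II, had 572, 442, 518 and 487 CPM and 317, 222, 136 and 401 CPM.

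Of 81 tested genes of the cytosolic ribosome, 79 were higher in the axon region and 2 in the ventral stalk (median log2 fold change -0.67). At an unadjusted p under 0.05, 45 were higher in the axon region (55.6%, against 2.39% of all genes) and 0 in the ventral stalk. None of the 81 was called by edgeR in controls. In mutants 77 of 81 were higher in the axon region (median -0.64), and 20 were called, against 0.418% of all genes in that direction. Together they held 4.99, 4.17, 5.59 and 4.19% of the counts in ventral controls 1 to 4 and 9.27, 5.64, 6.26 and 5.88% in axon controls 1 to 4. Axon control 1 was the highest. Without it 78 of the 81 were still higher in the axon region, with a median of -0.45 and 28 at an unadjusted p under 0.05. With RLE scaling the median was -0.64. Rps19 had 851, 1017, 958 and 669.8 CPM in the ventral libraries and 2634, 1420.4, 1803 and 1347 CPM in the axon libraries, without overlap (log2 fold change -1.24 ± 0.26 SE, edgeR adjusted p 0.368 in controls and 0.00286 in mutants). Rps29 had 822, 721, 1070.2 and 640.4 CPM and 1937, 1142, 1494 and 1243 CPM (edgeR adjusted p 0.453 in controls and 0.00157 in mutants). The translation elongation factor gene Eef1a1 had 3998, 2792, 3956 and 2833 CPM and 5686, 4277, 5779 and 4239.6 CPM (edgeR adjusted p 0.453 in controls and 0.000389 in mutants). Ribosomal protein genes have many near-identical processed copies in the genome, so their counts are uncertain where reads could be split. All values are shares of a library. A larger share in the axon region, with its fewer detected genes, cannot be told apart from less RNA of other genes there, and fewer cells of a type cannot be told apart from less RNA per cell.

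**Figure D5:**
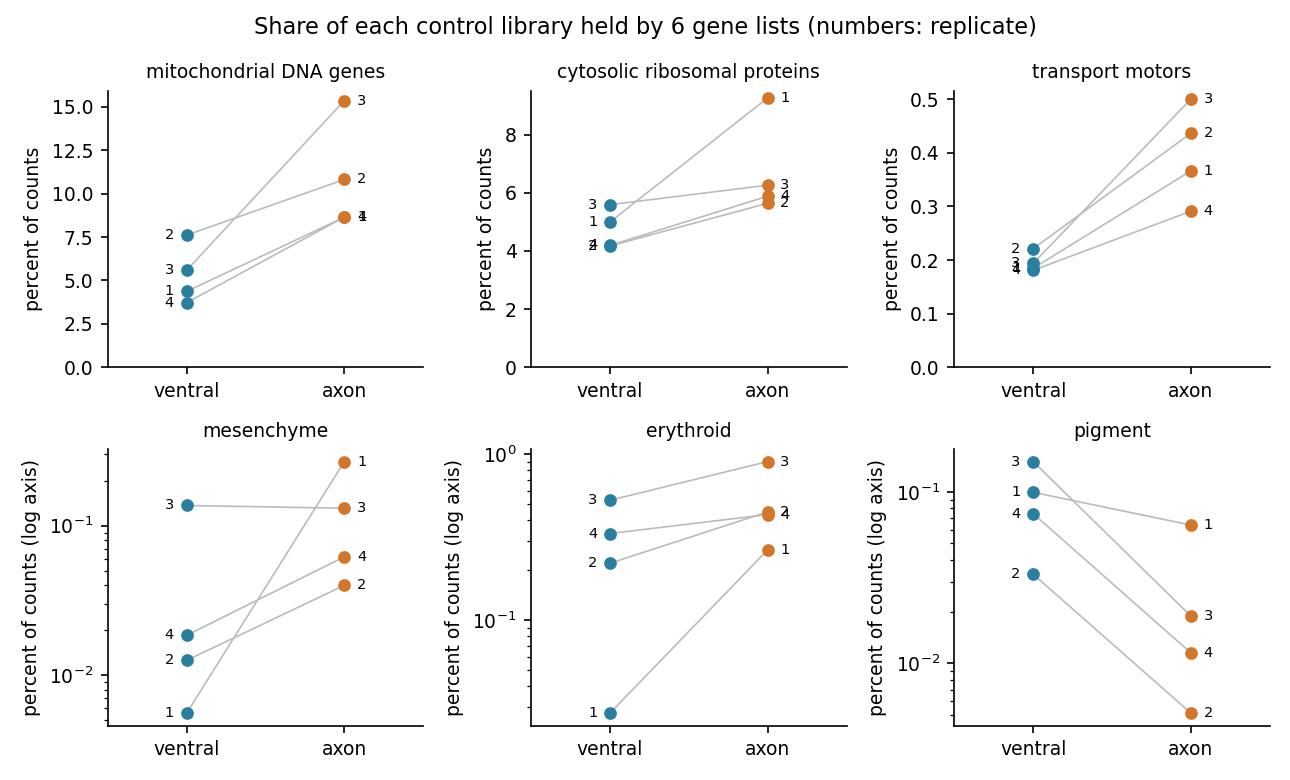
Percent of the counts of each control library held by 6 gene lists, in the ventral (blue) and axon (orange) libraries; numbers are replicate numbers, grey lines join equal numbers, and the lower panels have log axes. Mitochondrial DNA genes, ribosomal protein genes and motor genes (the last through Kif1a, Kif5c and Kif5b) do not overlap between the regions, while mesenchyme, erythroid and pigment genes do.

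Stalk cells and glial precursors were represented in both regions. Of 24 tested genes of astrocyte progenitors, 12 were higher on each side (median log2 fold change 0.01). Nes, which encodes the intermediate filament protein nestin of neural progenitors (ENSMUSG00000004891.16, chr3:87971078-87980451), had 139.9, 103, 155 and 111 CPM in the ventral libraries and 991, 412, 627 and 353 CPM in the axon libraries. The regions did not overlap (log2 fold change -2.43 ± 0.38 SE, edgeR adjusted p 0.0537 in controls and 0.0114 in mutants). Fabp7, a fatty acid binding protein gene of radial glia, had 969.7, 490.4, 581 and 515 CPM and 711, 1319.7, 2584 and 1346 CPM, with overlap through control 1 (edgeR adjusted p 0.453). In mutants Fabp7 had 723 ± 187 CPM in the ventral stalk and 829 ± 239 CPM in the axon region (SD, n = 5). The glial transcription factor gene Sox9 had 281, 317, 575 and 316 CPM and 103, 301, 184 and 133 CPM, and the Notch target gene Hes1 had 337, 297, 366 and 353 CPM and 137, 194, 191 and 303 CPM. Both had higher means in the ventral stalk, with overlap (edgeR adjusted p 0.453 and 0.515). The progenitor factor gene Sox2 had 63.9, 188, 133 and 108 CPM and 40.2, 105, 190.2 and 28.6 CPM.

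Gja1, which encodes the gap junction protein connexin 43 (ENSMUSG00000050953.10, chr10:56377330-56402513), had the smallest p among the genes that were higher in the ventral stalk. It stood at 778, 579, 727 and 696 CPM in the ventral libraries and at 72.0, 210.1, 141 and 174 CPM in the axon libraries. The lowest ventral library lay above the highest axon library (log2 fold change 2.05 ± 0.32 SE, edgeR adjusted p 0.0537, and 0.575 with the block). Mutants had 831 ± 286 and 245 ± 134 CPM (SD, n = 5), again without overlap (edgeR adjusted p 0.106).

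Proliferation genes did not share a direction, and 14 of 21 (66.7%, against 42.9% of all genes) were higher in the axon region (median log2 fold change -0.25). In mutants 8 of 21 were higher in the axon region and 13 in the ventral stalk (median 0.19). Beside Ccnd2, the cyclin D1 gene Ccnd1 had 895 and 517 CPM in axon controls 1 and 4, but 132 and 203 CPM in axon controls 2 and 3 and 172 to 253 CPM in the ventral libraries. Mki67, a marker of cycling cells, went the other way, with 394, 470.3, 379.7 and 334 CPM in the ventral libraries and 132, 126, 306 and 145 CPM in the axon libraries (log2 fold change 0.95 ± 0.36 SE, edgeR adjusted p 0.453). The ventral and axon values of Mki67 overlapped in neither genotype.

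The other leading ventral genes were of low abundance and were held by few reads in the axon region. Nrbp2, which encodes a pseudokinase, had 28.1, 146, 84.1 and 55.0 CPM in the ventral libraries and 0, 3, 0 and 2 counts in the axon libraries (edgeR adjusted p 0.163). Cbarp, a regulator of calcium channels, had 40.5, 38.0, 28.9 and 31.9 CPM and 0, 0, 0 and 1 counts. Ranbp10 and Galc, a lysosomal enzyme gene, had 19.6 to 40 and 24.4 to 33.7 CPM in the ventral libraries and at most 1 and 2 counts in an axon library. Dnmbp, a guanine nucleotide exchange factor gene, had 82.9, 31.0, 2.80 and 27.8 CPM and 0 counts in all 4 axon libraries, at least 223-fold lower there against a floor of 3 counts per library (edgeR adjusted p 0.453). Ventral control 1 raised that bound, which was at least 127-fold without it. DESeq2 gave adjusted p-values of 8.47e-17 for Nrbp2, 5.30e-18 for Cbarp and 4.10e-21 for Galc. In mutants the edgeR adjusted p-values of these genes lay above 0.05. Galc had 8.18 ± 12.7 CPM in the mutant ventral stalk and 23.9 ± 42.4 CPM in the mutant axon region (SD, n = 5), and Nrbp2 had 2.65 ± 5.0 and 0.0817 ± 0.183 CPM. Dnmbp had 0 counts in the mutant axon libraries too. More abundant were Tmem59, an autophagy regulator, with 491, 341, 489 and 475 CPM against 52.9, 197, 146 and 172 CPM, Mpv17, a mitochondrial inner membrane protein gene, with 198, 137, 357 and 143 CPM against 54.4, 64.3, 53.6 and 42.6 CPM, and the collagen gene Col9a1 with 300.2, 256, 599 and 377 CPM against 152, 150.1, 141 and 119 CPM. None of the 3 overlapped in controls, with edgeR adjusted p-values of 0.453 each, and all 3 overlapped in mutants.

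Guidance cues and their receptors were mostly higher in the ventral stalk, 23 of 30 (76.7%, against 57.1% of all genes; median log2 fold change 0.98). Without ventral control 2 the count was 20 of 30 (median 0.38). In mutants 17 of 31 were higher in the ventral stalk (median 0.26, against 0.37 for all genes tested there). The ephrin receptor gene Epha4 had 63.1, 288, 166 and 127 CPM in the ventral libraries and 0.0556, 14.8, 28.4 and 33.5 CPM in the axon libraries, without overlap (edgeR adjusted p 0.453). Slit2, a ligand that repels RGC axons, had 302, 247, 168 and 211 CPM and 6.96, 164, 164 and 103 CPM, and Ntn1, the gene of the guidance cue netrin 1, had 387, 279, 103 and 333 CPM and 30.4, 247, 309 and 166 CPM. For Slit2 axon control 1 was far below the other axon libraries, as it was for Ntn1. Of 10 hedgehog pathway genes 8 (80%) were higher in the ventral stalk (median 0.47), with 0 at an unadjusted p under 0.05. Of 15 stalk patterning genes 7 (46.7%) were (median -0.07). Nr2f1, a factor of ventral eye tissue, had 492, 517, 706 and 464 CPM and 152, 464, 323 and 207 CPM. Of 16 neural matrix genes 10 (62.5%, near the 57.1% of all genes) were higher in the ventral stalk (median 0.23). Of 10 retinal progenitor genes 4 (40%) were (median -0.07). Of 10 immediate early genes, which cells induce within minutes of stress, 8 (80%) were higher in the ventral stalk (median 1.12). An unadjusted p under 0.05 was reached by 2 of them (20%, against 6.80% of all genes). Without ventral control 4 these genes were split 5 and 5 (median 0.47). In batch B alone 0 had an unadjusted p under 0.05. None of 24 SWI/SNF subunit genes had an unadjusted p under 0.05 (median 0.12).

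Noncoding RNAs that stay in nuclei were higher in the ventral stalk in 6 of 8 cases (75%, against 57.1% of all genes). Their median log2 fold change was 1.00, and 2 had an unadjusted p under 0.05. Meg3 had 301, 820.1, 161 and 282 CPM in the ventral libraries and 16.8, 174, 34.4 and 106 CPM in the axon libraries (edgeR adjusted p 0.453). Malat1 had 1222, 3214, 1545 and 1585 CPM and 575, 1228, 1098 and 791 CPM, where the highest axon library, that of control 2, lay just above the lowest ventral library. Without ventral control 2 these 8 genes had a median of 0.61 and 0 had an unadjusted p under 0.05. In mutants 8 of 8 were higher in the ventral stalk (median 2.08, against 0.37 for all genes tested there), and 0 were called by edgeR.

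None of the markers of pigment cells or of cells outside the stalk epithelium was called by edgeR in controls. Their summed shares overlapped between the regions. The paper describes a passing pigmented state in the dorsal stalk epithelium itself, so pigment genes do not mark only cells outside it. As edgeR called only 5 of 15839 genes, the lack of marker calls says little about these cells. DESeq2 called 81 of 15839 genes higher in the axon region. These held 1 of 6 mural, 1 of 10 erythroid, 1 of 12 myeloid and 0 of 13 mesenchyme genes. Its 343 calls on the ventral side were not counted by list. Of all genes tested, 42.9% were higher in the axon region and 57.1% in the ventral stalk. Of 13 mesenchyme genes 12 were higher in the axon region (median log2 fold change -1.71), and their summed share was 0.00558 to 0.137% in the ventral libraries and 0.0400 to 0.269% in the axon libraries. The collagen gene Col1a2 had 28.8, 45.7, 127 and 115 CPM and 398, 131, 218 and 129 CPM. Of 10 erythroid genes 9 were higher in the axon region (median -1.22; 0.0275 to 0.528% and 0.265 to 0.903%), and of 12 myeloid genes 10 were (0.00141 to 0.0126% and 0.000896 to 0.0365%). The pigment genes went the other way in 10 of 11 cases (median 2.42), with 0.0331 to 0.150% of the ventral counts and 0.00513 to 0.0640% of the axon counts. Pmel, which encodes a melanosome fibril protein, had 794, 112, 1018 and 449 CPM in the ventral libraries and 298, 19.9, 55.3 and 8.47 CPM in the axon libraries. Endothelial genes were divided evenly, 5 and 5, and 4 of 6 mural cell genes were higher in the axon region. In mutants 12 of 13 mesenchyme genes (median -3.78) and 10 of 10 erythroid genes (median -4.14) were again higher in the axon region. Of 10 pigment genes tested in mutants, 9 were higher in the ventral stalk (median 1.85). The myeloid genes turned, with 10 of 12 higher in the mutant ventral stalk. All 10 endothelial genes were higher in the mutant axon region. Of 9 oligodendrocyte and Schwann cell genes 5 were tested, and the oligodendrocyte factor gene Olig2 was at 0 in all 8 libraries. The part of these cells in the levels of Ccnd2, Fth1, the ribosomal protein genes and the mitochondrial genes was not tested.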

How the data were processed

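RNA of laser-captured pieces was amplified, tagged with Nextera XT and sequenced single-end. The authors deposited raw counts per gene for 27 libraries. The submitters' notes and the methods name STAR, HTSeq, Salmon and the mm10 build, while tool versions, annotation release and whether counting used strand are not given in the sources used here. The deposited table held 55487 genes, of which 260 had no match in GENCODE M21 (0.00287% of counts) and kept their identifiers. No molecular identifiers were used, so floors cover counting error only. The labels do not say that libraries of a group came from separate litters, and p-values measure the spread between these libraries.

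Counts were tested with edgeR 4.0.16 (quasi-likelihood, TMM scaling, Benjamini-Hochberg adjustment, two-sided) over genes that exceeded 10 counts in 3 or more libraries of the series. CPM were computed from the deposited counts. DESeq2 1.42.0, limma 3.58.1 (voom), RLE scaling, other filters, batch, the replicate number as a block and leaving out libraries were the alternatives. The fits were tested on simulated data. Same-numbered libraries had correlations of -0.01 to 0.05 between their deviations from the group means, and 3 of 4 ventral libraries correlated best with their own number, so the numbers were not taken to pair the libraries by the data.

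The comparison, the gene lists (29) and the alternatives were chosen with earlier results of these data known. Genes were named when called, when among the 12 smallest p-values of a direction, when discussed by the study, or when first or of smallest p in their list. Genes named outside that rule to show ventral control 2 were chosen after their values were seen.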

Additional observations from a re-analysis of the deposited data

Results flagged for a closer look

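In all, 102 groups of 4 or 5 libraries were examined for a library far from the rest. They covered 43 genes in controls, the 5 called genes also in mutants, and 4 library measures in controls. Such a library was found in 11 groups, where chance gives about 1 in 20. Ventral control 2 was far above the other ventral libraries for Kif5b (221 CPM, the others 123 to 135) and Cplx2 (221 CPM, the others 18.2 to 47.8), and far below them for Tmem59 (341 CPM, the others 475 to 491). Ventral control 3 was far above the others for Sox9 (575 CPM, the others 281 to 317). Axon control 3 was far above the other axon libraries for mt-Rnr1 (6485 CPM, the others 4152 to 4543) and Mki67 (306 CPM, the others 126 to 145). Axon control 4 was far below the others for Sncg (122 CPM, the others 519 to 589), and axon control 1 far above them for Pmel (298 CPM, the others 8.47 to 55.3). The remaining 3 were single reads beside libraries at 0, for Cbarp in axon control 4 (0.0458 CPM), Ranbp10 in axon control 1 (0.0556 CPM) and Acsl6 in axon control 3 (0.0596 CPM).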

How the results depend on the processing

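The count of genes called in controls (5) depended on the method. It was 424 with DESeq2, 28 with limma voom, 18 with the newer edgeR method, 2 without robust estimation, 2 with RLE scaling, 18 with no filter, 2 with the filter applied within the 8 libraries, 3 with batch as a term, 1 in batch B alone (Trp53inp2), 8 with all 12 control libraries in the fit and 21 with all 27 libraries. With the replicate block it was 0 (418 genes at an unadjusted p under 0.05). Leaving out a library or a pair gave 1 to 4 calls. In mutants (70 calls) DESeq2 gave 1352 (1128 higher in the ventral stalk and 224 in the axon region), the replicate block 41, and leaving out a library 42 to 70. For the difference between genotypes (0 calls) DESeq2 gave 890 and no filter 24, and leaving out a library gave 0 to 1, the 1 being Sparc without mutant axon library 4. The cause of these differences was not tested. The difference in mitochondrial share (ventral minus axon) ranged from -6.31 to -4.05 percentage points over 8 fits without a library, and that of the 50 most abundant genes from -8.21 to -5.72. For 43 genes, 951 of 1072 alternative values kept their direction and their side of the threshold, 61 passed it, 60 no longer passed it, and 0 changed direction. Most of these genes had a small p in the main fit and the alternatives reused its libraries, so few changes of direction could occur. Nefl, Stmn2, Gap43 and Sox2, which overlapped between the regions, were not among them. List medians changed sign in 11 of 25 alternatives for stalk patterning, 5 of 25 for tubulins and 0 of 25 for cytosolic ribosomal proteins. With 4 libraries a region, no exact test could give a p below 0.0286, and genes with 3 or fewer counts in a library had no measurable level there.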
